A study of Mus musculus with 6 samples.

Results

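The enzymes that make and destroy retinoic acid were measured in mouse embryos at E11.5, in EGFP-positive cells that a sorter had isolated from dissected intermediate mesoderm. A member was any probe set (a group of probes on the array that together report 1 transcript) that the platform annotation assigned to exactly 1 of 8 genes: Aldh1a1, Aldh1a2, Aldh1a3, Rdh10, Dhrs3, Cyp26a1, Cyp26b1 and Cyp26c1. This gave 10 of 45037 probe sets, covering 7 of the 8 genes, with 3 probe sets for Aldh1a3 and 2 for Rdh10, and none for Cyp26c1. Of the 6 arrays, 3 came from Pax2 nulls, whose titles read EGFP/EGFP, and 3 from Pax2 heterozygotes, whose titles read EGFP/+. All 6 samples therefore carried EGFP and lacked at least 1 intact Pax2 copy, and no wild-type sample was included. Pax2 encodes a transcription factor needed for the duct and mesenchyme of the developing kidney. Its own level is not analysed here, and could not serve as a check of the genotype labels. The labels do not say whether the samples came from separate embryos or litters, so the spread behind each p-value may be technical in part.

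Retinoic acid is a diffusible signal made from vitamin A. Retinol is first oxidised to retinaldehyde, a reversible step in which Rdh10 works forwards and Dhrs3 backwards, and the Aldh1a dehydrogenases then convert retinaldehyde irreversibly to retinoic acid. The Cyp26 cytochromes inactivate it by oxidation, so that the balance of the enzymes sets where the signal acts. In the embryonic kidney Aldh1a2 is known as an enzyme of mesenchyme and stroma and Aldh1a3 as one of the duct epithelium, and retinoic acid acting on the ureteric bud is known to maintain the receptor gene Ret.

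In GRCm38.p6, the assembly of the RefSeq tables, Aldh1a2 lies on chromosome 9 (71215789 to 71296243), Aldh1a3 on chromosome 7 (66390892 to 66427477), Rdh10 on chromosome 1 (16105882 to 16132550) and Dhrs3 on chromosome 4 (144892534 to 144928209). Cyp26b1 lies on chromosome 6 (84571414 to 84593908). Chromosome 19 holds Aldh1a1 (20492583 to 20643463) as well as Cyp26c1 (37685112 to 37693320) and Cyp26a1 (37697738 to 37701536), the last pair separated by 4417 bases.

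RefSeq promoter windows, which run from 250 bases before a transcript start to 50 bases after it, matched 6 of the 8 genes. The start used can lie inside the gene's outer limits given above: it was 37697808 for Cyp26a1 and 84593810 for Cyp26b1. Those of the breakdown enzymes Cyp26a1 and Cyp26b1 are shown because these relatives had changes of opposite sign, null minus heterozygote. Neither change passed the threshold. On the log2 scale Cyp26a1 had -0.62 (limma, adjusted p = 0.589), at a low signal, and Cyp26b1 0.64 (0.408). Capitals mark a match to AGNTCANNNNNAGNTCA, where N is any base, a direct repeat of AGNTCA with 5 bases between the repeats. AGNTCA only approximates the half-site that retinoic acid receptors bind.
Cyp26a1, chr19:37697558-37697857, plus strand: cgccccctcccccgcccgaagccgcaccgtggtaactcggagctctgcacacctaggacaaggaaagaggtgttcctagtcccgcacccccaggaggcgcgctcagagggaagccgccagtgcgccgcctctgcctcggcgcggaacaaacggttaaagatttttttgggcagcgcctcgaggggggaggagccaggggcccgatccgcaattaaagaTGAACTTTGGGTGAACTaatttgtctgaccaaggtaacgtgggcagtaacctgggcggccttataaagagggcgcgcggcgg
Cyp26b1, chr6:84593761-84594060, minus strand: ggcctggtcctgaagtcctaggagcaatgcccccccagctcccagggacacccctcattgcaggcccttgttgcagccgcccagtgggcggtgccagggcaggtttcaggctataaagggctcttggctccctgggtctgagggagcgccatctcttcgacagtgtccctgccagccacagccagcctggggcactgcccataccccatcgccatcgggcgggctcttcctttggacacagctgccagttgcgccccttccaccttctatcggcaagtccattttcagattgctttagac
The Cyp26a1 match begins 32 bases before the start that the window uses and ends 16 bases before it (chr19:37697776-37697792), which is inside the gene's annotated limits, and it reads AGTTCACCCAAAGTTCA on the opposite strand. On either strand this repeat occurred in 67 of 32851 promoter windows of that length (0.204%). The Cyp26b1 window held neither the repeat nor a single AGNTCA, which 46.6% of windows held. The window of Cyp26c1, a breakdown enzyme without a probe set, held 3 matches to AGNTCA and 0 to the repeat. The shorter repeat AGNTCANNAGNTCA, found in 0.107% of windows, and GTCACGC, a core of the sequence bound by the paired domain and found in 2.09%, had 0 matches in the 9 windows of the 6 genes. These are matches of letters in short windows and say nothing of binding.

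The median probe set had a log2 value of 6.12 to 6.24 on each array, and arrays of 1 genotype correlated at 0.976 to 0.991 over all probe sets. Of 12 measured markers of intermediate mesoderm and kidney mesenchyme, 11 had a mean above 6.24 in nulls and 12 in heterozygotes. The exception was Lhx1, which averaged 6.06 in nulls and 8.55 in heterozygotes. The level of 6.24 is a low bar for genes, whose median was 7.31 with the brightest probe set of each. The labels give no batch. By their hybridization controls, bacterial transcripts added to each array, the arrays formed 3 pairs with 1 array of each genotype. Pair 1 joined null 3 and heterozygote 1, pair 2 null 1 and heterozygote 2, and pair 3 null 2 and heterozygote 3. With the genotype means removed, the correlation across genes was at least 0.377 between the arrays of a pair, and at most 0.0972 between arrays of opposite genotype outside a pair.

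Aldh1a3 was the only one of the 7 measured genes with a probe set that passed the test, and it fell in null cells. Of the 10 probe sets, 2 fell and 0 rose, both of them for Aldh1a3 (limma with Benjamini-Hochberg adjustment over all 45037 probe sets, adjusted p under 0.05), beside 0.691% of all probe sets called. When each gene was represented by its brightest probe set and adjusted over 18193 genes, 0 of the 7 passed, beside 1.39% of all genes called, and 4 of the 7 had an unadjusted p under 0.05, beside 9.73% of all genes. Arrays of the genotypes did not overlap for 8 of the 10 probe sets, 3 of them higher and 5 lower in nulls, beside 11.7% of all probe sets. The lower ones include all 3 of Aldh1a3, which are not independent. By gene it was 6 of the 7, 3 higher and 3 lower, beside 13.6% of all genes. For Aldh1a2, Cyp26a1, Cyp26b1 and the brighter Rdh10 probe set the gap between genotypes was only 0.05 to 0.13 log2 units. The 7 genes had a median change of 0.43 on the log2 scale, against -0.02 for all genes, with 4 positive and 3 negative. Changes are null minus heterozygote throughout, and a change of 1 log2 unit is 2-fold. In cells sorted in bulk, fewer cells of a type and less RNA per cell cannot be told apart.

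**Figure D1:**
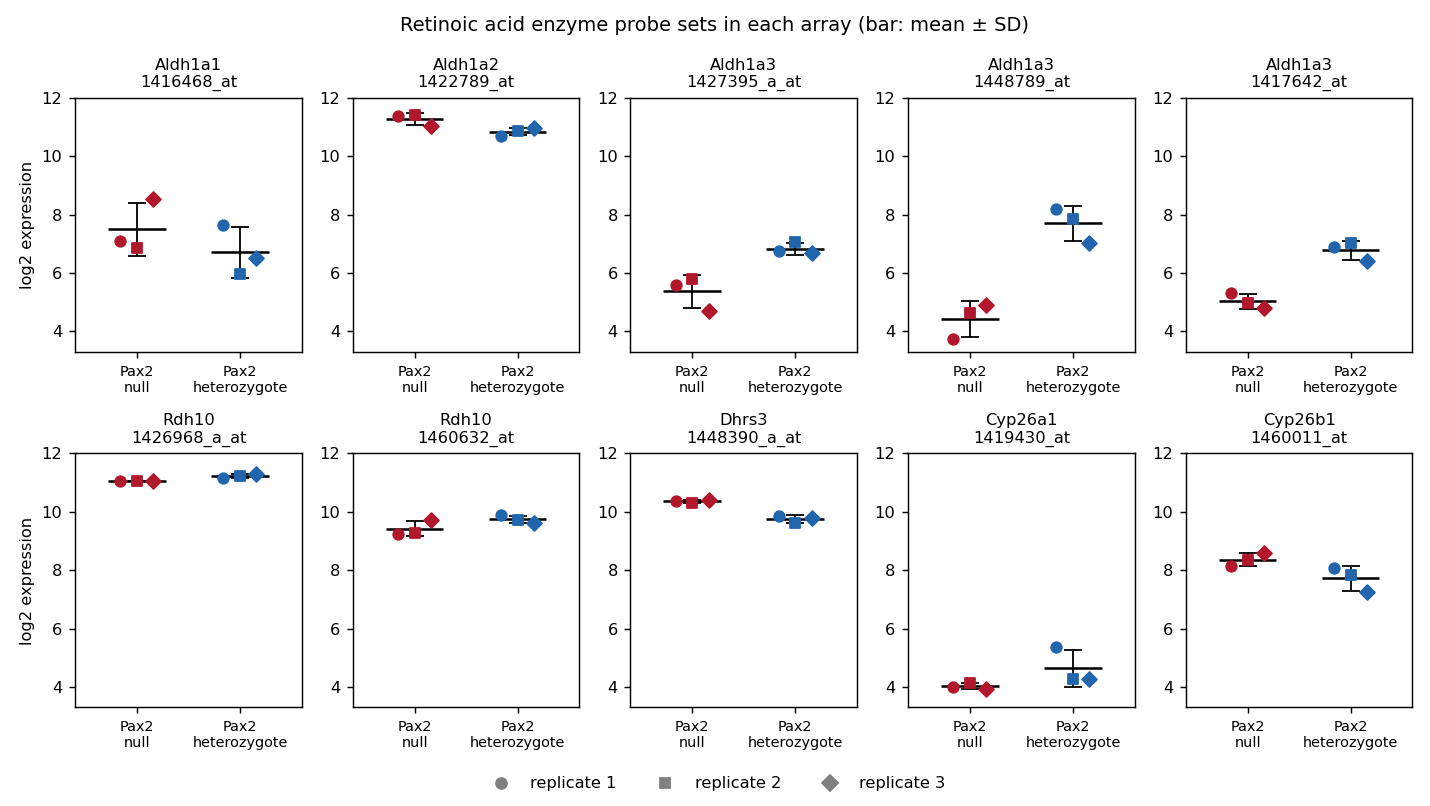
Log2 expression of the 10 probe sets (vertical axis) in the 3 Pax2 null arrays, left and red, and the 3 Pax2 heterozygote arrays, right and blue, with marker shapes for the replicate numbers and black bars for mean ± SD. For Aldh1a3 probe set 1448789_at, null arrays lie at 3.73 to 4.91 and heterozygote arrays at 7.04 to 8.21, while the brighter Rdh10 probe set lies between 11.05 and 11.29 in all 6.

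Aldh1a3, the retinaldehyde dehydrogenase of the duct, was measured by 3 probe sets that report the same gene and are not independent of each other. Probe set 1448789_at stood at 3.73, 4.65 and 4.91 in the null arrays, against 8.21, 7.86 and 7.04 in the heterozygote arrays. It fell by 3.28 ± 0.39 on the log2 scale (SE, n = 3 each), and was 9.68-fold lower in nulls (limma, adjusted p = 0.0166). Every null array lay more than 2 log2 units under every heterozygote array, and the null mean of 4.43 was dimmer than 4.81, the 33rd percentile over all probe sets, where differences are compressed.

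Probe set 1417642_at had values of 5.32, 4.98 and 4.79 in nulls and 6.89, 7.02 and 6.41 in heterozygotes. It fell by 1.75 ± 0.22 (SE), a 3.35-fold difference (limma, adjusted p = 0.0213). Probe set 1427395_a_at, built to detect alternative transcripts of the gene, had values of 5.60, 5.80 and 4.71 in nulls and 6.74, 7.08 and 6.70 in heterozygotes. Its change of -1.47 ± 0.29 (SE) did not pass among probe sets (limma, adjusted p = 0.1005), though it did with array weights (0.0469). In no probe set did the genotypes overlap, and over the 6 arrays the 3 probe sets correlated with each other at 0.82 to 0.94. Their sizes differed, with 95% intervals of -4.17 to -2.38 for 1448789_at, -2.26 to -1.23 for 1417642_at and -2.15 to -0.79 for 1427395_a_at.

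As a gene, Aldh1a3 was represented by 1427395_a_at and missed the threshold (limma, adjusted p = 0.0605). It passed with the mean of its 3 probe sets, which changed by -2.16 (limma, adjusted p = 0.00209). It also passed when the array pair was a block (limma, adjusted p = 0.0284) and with array weights (0.0233). So it did without dim probe sets (0.0425) and with an intensity-dependent prior (0.0484). The block called 4.56% of all genes, against 1.39% in the main fit. Array weights called 341 genes higher and 212 lower, against 147 and 106. Aldh1a3 as a gene did not pass with median centring (limma, adjusted p = 0.0529), with a robust prior (0.0669) or with any 1 array left out (0.0551 to 0.204). For 1448789_at the difference was -3.30, -4.13 and -2.40 in pairs 1, 2 and 3. As its genotypes do not overlap, any pairing would give the same sign. The call of 1448789_at was lost without heterozygote 2 (limma, adjusted p = 0.0752), null 1 (0.0508) or null 2 (0.0578). That of 1417642_at was lost without heterozygote 2 (limma, adjusted p = 0.0909), heterozygote 3 (0.0501), null 1 (0.0548), null 2 (0.0875) or null 3 (0.0713), and kept without heterozygote 1 (0.0371).

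Markers of the nephric duct and ureteric bud moved with Aldh1a3. Of 13 measured, all 13 had a negative change and 5 fell (Ret, Gata3, Calb1, Elf5 and Mal). Over all 18193 genes, 9755 had a negative change and 8438 a positive one, with 0.583% called lower and 0.808% called higher. The 13 duct markers had a mean log2 level of 7.75 to 8.23 in the null arrays and 9.32 to 9.76 in the heterozygote arrays. The general epithelial markers of that list differed little. Epcam had a mean of 11.37 in nulls and 11.42 in heterozygotes, and Krt8 10.91 in nulls and 10.96 in heterozygotes. Not all duct markers of the list separated the genotypes. Wnt9b (-0.18), Hoxb7 (-0.40) and Wnt11 (-0.55) overlapped and were not called (limma, adjusted p = 0.978, 0.928 and 0.603). The 12 markers of intermediate mesoderm and kidney mesenchyme had a mean log2 level of 9.02 to 9.38 in nulls and 9.70 to 10.19 in heterozygotes, with 11 negative, 4 that fell (Lhx1, Gdnf, Sall1 and Eya1) and 1 that rose (Cited1). Markers of urothelium and hindgut epithelium had a mean log2 level of 6.63 to 6.76 in nulls and 5.08 to 5.18 in heterozygotes, with 8 of 9 positive and 4 that rose. The part of these cell types in the Aldh1a3 result was not tested.

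Aldh1a2, the main retinoic acid-producing enzyme of the early embryo, did not pass. Its log2 values were 11.37, 11.42 and 11.05 in nulls and 10.71, 10.87 and 10.97 in heterozygotes. The lowest null array lay 0.08 above the highest heterozygote array. The change was 0.43 ± 0.17 (SE), with a 95% interval of 0.04 to 0.82 (limma, adjusted p = 0.428), and the 3 pairs gave 0.34, 0.51 and 0.45. The interval lay above that of Aldh1a3 as a gene, which was -2.13 to -0.80. Aldh1a2 is also known from spinal motor neurons, whose markers differed in level: Mnx1 averaged 2.87 in nulls and 2.78 in heterozygotes, and Chat 3.24 in nulls and 3.34 in heterozygotes, but Isl1 averaged 7.47 in nulls and 7.07 in heterozygotes. The 12 markers of spinal neurons had a mean log2 level of 5.06 to 5.18 in nulls and 4.77 to 4.92 in heterozygotes. Of the 12, 9 were positive and 1 rose (Stmn2), beside 8438 of 18193 genes positive and 0.808% called higher. The part of spinal neurons in the Aldh1a2 values was not tested.

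Aldh1a1, the third enzyme of this step, varied most among arrays of a genotype. It stood at 7.10, 6.85 and 8.53 in nulls and 7.65, 5.95 and 6.51 in heterozygotes, so that the genotypes overlapped. Null 3 and heterozygote 1, which form pair 1, were the highest array of each genotype. The change of 0.79 ± 0.53 (SE) had a 95% interval of -0.44 to 2.02 (limma, adjusted p = 0.826). Within pairs the difference was 0.88, 1.14 and 0.34, and blocking on the pair gave 0.79 ± 0.17, which missed the threshold (limma, adjusted p = 0.0763). It was 0.27 without null 3, 0.41 without heterozygote 2 and 1.26 without heterozygote 1.

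**Figure D2:**
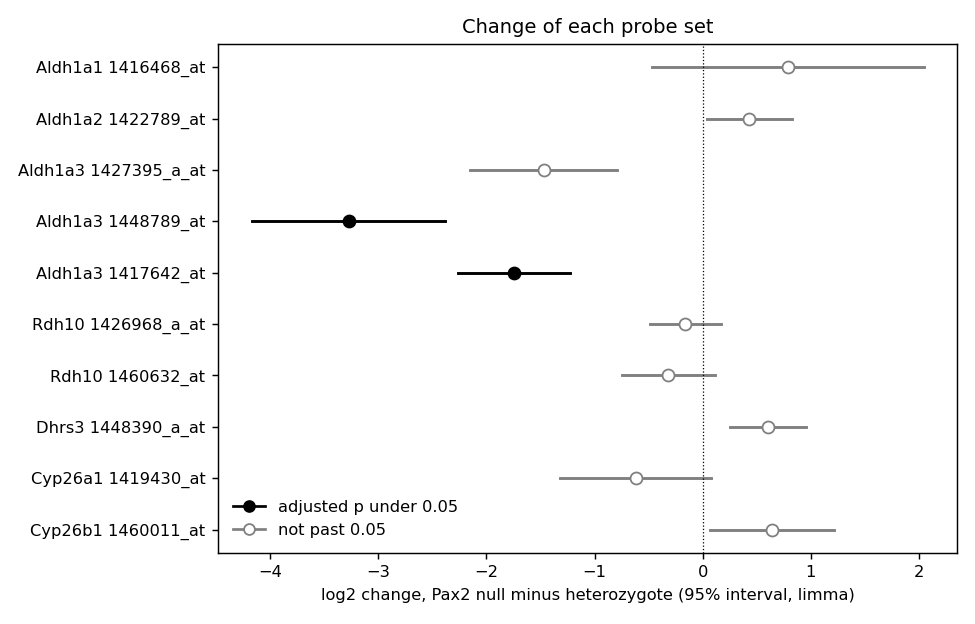
Log2 change of each probe set, Pax2 null minus heterozygote (horizontal axis), with 95% intervals from limma over all probe sets. The filled points, with adjusted p under 0.05, are 2 of the 3 Aldh1a3 probe sets, at -3.28 and -1.75.

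Of the enzymes of the first, reversible step, Rdh10 and Dhrs3 had changes of opposite sign and neither passed. Rdh10, which oxidises retinol to retinaldehyde, had values of 11.05, 11.06 and 11.06 in nulls and 11.15, 11.22 and 11.29 in heterozygotes for probe set 1426968_a_at. The genotypes did not overlap, but the change was only -0.16 ± 0.14 (SE), with a 95% interval of -0.48 to 0.16 (limma, adjusted p = 0.908). The second probe set, 1460632_at, stood at 9.26, 9.28 and 9.73 in nulls and 9.88, 9.71 and 9.63 in heterozygotes. Those values overlapped, with a change of -0.32 ± 0.18 (limma, adjusted p = 0.869 among probe sets), and over the 6 arrays the 2 probe sets correlated at 0.49.

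Dhrs3, which reduces retinaldehyde back to retinol, stood at 10.37, 10.31 and 10.41 in nulls and 9.86, 9.60 and 9.80 in heterozygotes. The genotypes did not overlap, with the arrays of each within a narrow range. The change was 0.60 ± 0.15 (SE; 95% interval 0.26 to 0.95), which missed the threshold (limma, adjusted p = 0.130). The pairs gave 0.54, 0.76 and 0.51, and a fit with the pair as a block called Dhrs3 (limma, adjusted p = 0.0480). In that fit 4.56% of all genes were called. Among probe sets it did not pass with that block (limma, adjusted p = 0.0977).

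The breakdown enzymes also had changes of opposite sign, and neither passed. Cyp26b1, the form known from mesenchyme and gonad, stood at 8.13, 8.35 and 8.59 in nulls and 8.08, 7.83 and 7.24 in heterozygotes. The closest arrays, null 1 and heterozygote 1, differed by 0.05. The change was 0.64 ± 0.24 (SE), with a 95% interval of 0.08 to 1.20 (limma, adjusted p = 0.408), and the pairs gave 0.51, 0.30 and 1.11. Without heterozygote 3, its lowest array, the change was 0.40.

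Cyp26a1, whose promoter holds the repeat shown above, had values of 4.001, 4.13 and 3.93 in nulls and 5.37, 4.28 and 4.27 in heterozygotes. Only heterozygote 1 exceeded the 33rd percentile of all probe sets (4.81), and the other 5 arrays spanned 0.35. The change was -0.62 ± 0.30 (SE), with a 95% interval of -1.30 to 0.07 (limma, adjusted p = 0.589). It was -0.25 without heterozygote 1 (limma, adjusted p = 0.712), and pair 1, which holds that array, gave -1.44 against -0.28 and -0.13 in pairs 2 and 3. Apart from that array, a difference in Cyp26a1 was not detectable at this signal.

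**Figure D3:**
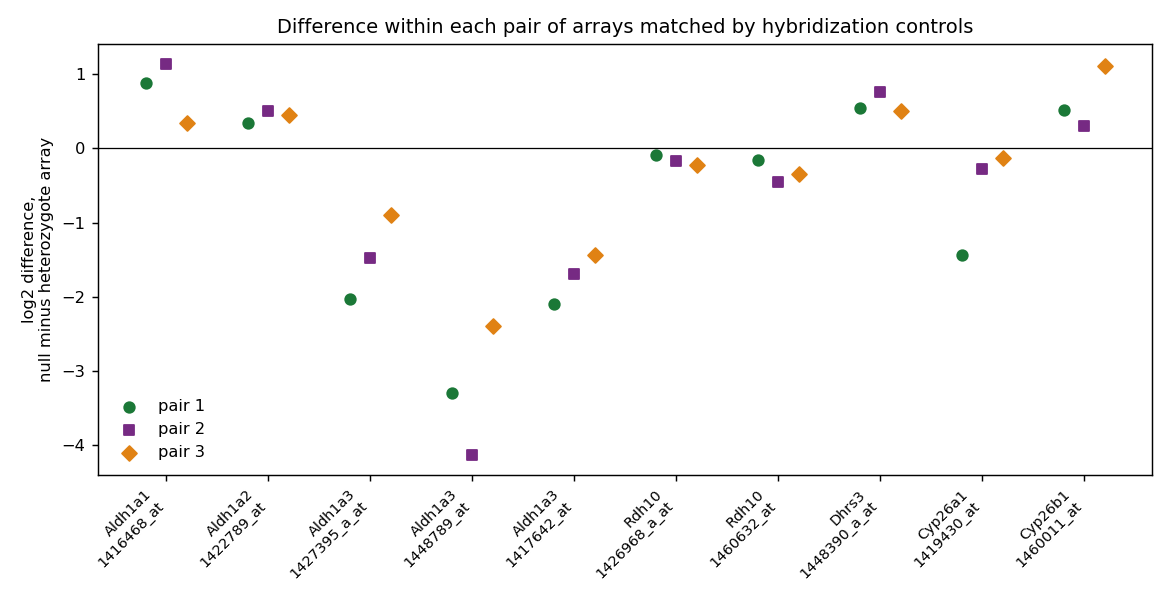
Log2 difference of the null array from the heterozygote array (vertical axis) within each of the 3 pairs matched by hybridization controls, for each probe set. The 3 pairs have the same sign in each of the 10 probe sets. For the 8 without overlap between genotypes, any pairing would give that. Cyp26a1 shows the outlying value of -1.44 in pair 1.

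Stromal markers were higher in nulls, while Aldh1a1, Aldh1a2, Dhrs3 and Cyp26b1 had positive changes that did not pass in the main fit. Of 12 stromal markers measured, 11 had a positive change and 6 rose. Over all 18193 genes, 8438 had a positive change and 0.808% were called higher. The 12 stromal markers had a mean log2 level of 9.21 to 9.54 in null arrays and 7.90 to 8.41 in heterozygote arrays. Gonad and adrenal markers stood at 6.998 to 7.19 in nulls and 6.03 to 6.44 in heterozygotes (8 of 9 positive, 1 rose), and those of macrophages and leukocytes at 6.81 to 7.86 in nulls and 5.75 to 6.67 in heterozygotes (8 of 8 positive, 0 rose). Markers of coelomic epithelium and mesothelium overlapped, at 6.14 to 6.47 in nulls and 5.60 to 6.47 in heterozygotes, with 5 of 9 positive and 1 that rose. Those of endothelium stood at 4.96 to 5.40 in nulls and 4.91 to 5.22 in heterozygotes (5 of 7 positive, 0 rose), and those of erythroid cells at 7.22 to 8.09 in nulls and 6.95 to 7.77 in heterozygotes (3 of 5 positive, 0 rose). The part of these cells in the values of the enzymes named was not tested.

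Other genes of retinoid handling, receptors and responses were read from the same fit over 18193 genes. Of 60 measured, 4 rose and 1 fell, beside 0.808% of all genes called higher and 0.583% called lower, and their median change was 0.08. Among 24 other metabolic enzymes, 2 rose and 0 fell, with a median of -0.03. Adh1, an alcohol dehydrogenase that oxidises retinol, stood at 11.04, 10.93 and 11.22 in nulls and 10.13, 9.53 and 9.24 in heterozygotes, a rise of 1.43 ± 0.24 (SE; limma, adjusted p = 0.0318). Cyp1b1, a cytochrome able to oxidise retinol and retinaldehyde, had values of 9.03, 9.09 and 9.19 in nulls and 8.13, 7.73 and 7.66 in heterozygotes, a rise of 1.26 ± 0.18 (SE; limma, adjusted p = 0.0169). Neither gene overlapped between genotypes, and of the 3 Cyp1b1 probe sets 2 were positive.

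Among 9 genes of binding and uptake, 1 rose and 0 fell, with a median of 0.12. Over all genes 0.808% were called higher and 0.583% lower. Crabp1, a cytoplasmic retinoic acid-binding protein, had values of 11.48, 11.36 and 11.14 in nulls and 10.01, 9.12 and 9.35 in heterozygotes. Its rise of 1.84 ± 0.24 (SE) was 3.57-fold (limma, adjusted p = 0.0150). Of 13 receptors and co-regulators, 11 had a positive change, beside 8438 of 18193 genes. In that list 1 rose and 0 fell, with a median of 0.20. Rarg, a nuclear retinoic acid receptor, stood at 7.68, 8.21 and 7.86 in nulls and 7.03, 6.81 and 6.87 in heterozygotes, a rise of 1.01 ± 0.18 (SE; limma, adjusted p = 0.0418). Both of its probe sets were positive.

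Of 14 genes listed as induced by retinoic acid, 0 rose and 1 fell, beside 0.808% of all genes called higher and 0.583% lower. In that list 7 were positive and 7 negative, with a median of 0.00. Genes that retinoic acid induces were also listed under other roles, such as Rarb with the receptors. The median therefore depends on how the lists were divided, and is no measure of the retinoic acid response. Ret, the duct receptor for Gdnf, stood at 6.46, 8.003 and 5.86 in nulls and 9.91, 10.27 and 10.26 in heterozygotes, a fall of 3.37 ± 0.48 on the log2 scale (limma, adjusted p = 0.0189). Ret is also among the duct markers described above. Rarb, a receptor gene that retinoic acid directly induces, was picked after its values were seen. It stood at 7.07, 7.91 and 7.33 in nulls and 7.19, 6.64 and 7.64 in heterozygotes, which overlapped, and had a change of 0.28 ± 0.30 (limma, adjusted p = 0.959).

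These 5 calls rest on most of the arrays. With 1 array left out, the number of the 60 genes that rose was 4 without heterozygote 1 (Rarg not among them), 1 without null 3 (Crabp1) and 0 without heterozygote 2, heterozygote 3, null 1 or null 2. Ret lost its call without heterozygote 2 (limma, adjusted p = 0.0748), heterozygote 3 (0.0857) or null 1 (0.0656). Crabp1 lost it without heterozygote 2 (limma, adjusted p = 0.0515), heterozygote 3 (0.0739), null 1 (0.0634) or null 2 (0.0608). Adh1 and Cyp1b1 lost theirs when any 1 of the other 5 arrays than heterozygote 1 was left out, with limma's adjusted p up to 0.125 and 0.0856. Rarg lost its call without each of the 6 arrays (limma, adjusted p = 0.0522 to 0.165), with median centring (0.0732) and with an intensity-dependent prior (0.0746). Cyp1b1 did not pass with the mean of its probe sets (limma, adjusted p = 0.0649). Blocking on the pair gave 8 of the 60 that rose and 1 that fell.

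**Figure D4:**
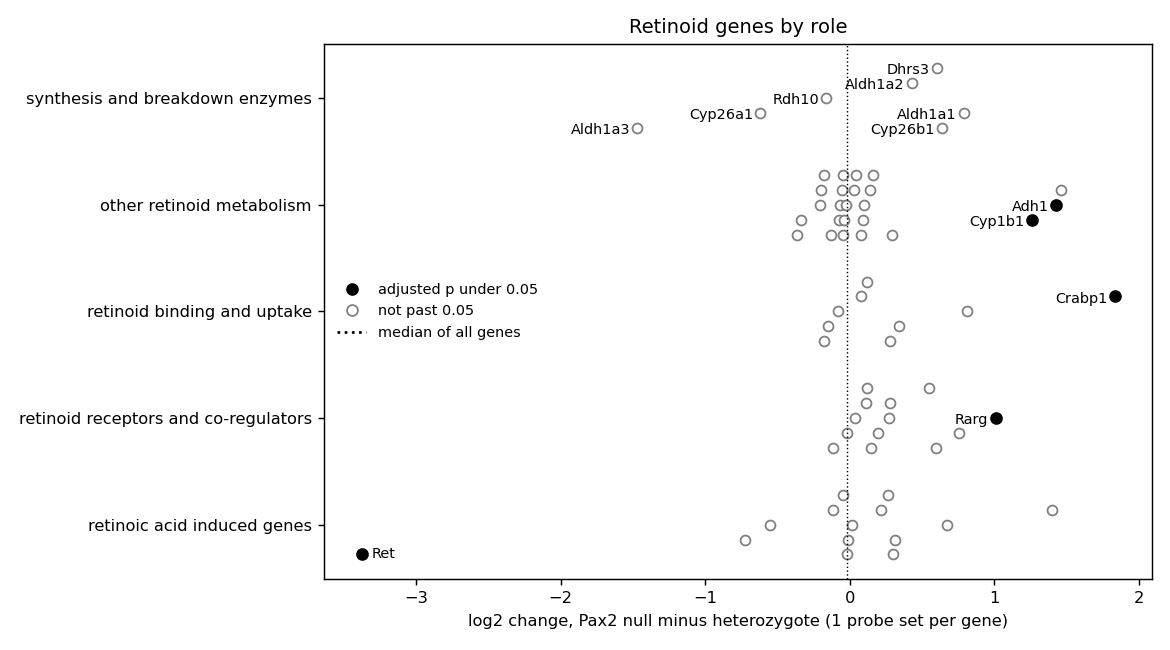
Log2 change, Pax2 null minus heterozygote (horizontal axis), of the 7 measured synthesis and breakdown genes and of 60 other retinoid genes grouped by role, each gene represented by its brightest probe set. Filled points passed over all genes (Adh1, Cyp1b1, Crabp1, Rarg and Ret), and the dotted line is the median of all genes at -0.02.

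The genes whose pattern over the 6 arrays lay closest to each enzyme were listed by Pearson correlation among 9097 genes at or above the median level. The 3 closest to each of the 7 enzymes correlated at 0.971 to 0.999 over 6 arrays that share the genotype difference. Correlations this high follow from picking the closest of so many genes over 6 arrays. Where the genotypes did not overlap for an enzyme, a genotype difference in its closest genes also follows from that choice. For Aldh1a3 they were Veph1 (0.991), which fell by 1.71 on the log2 scale (limma, adjusted p = 0.0255), Exosc9 (0.987), a subunit of the RNA exosome, and Spire1 (0.984), an actin nucleator. For Dhrs3 they were Pcdh18 (0.997), a protocadherin, Emp3 (0.995), a membrane protein, and Arhgap23 (0.994). All 3 rose, by 1.06, 1.12 and 1.05 (limma, adjusted p = 0.0265, 0.0229 and 0.0206). For Aldh1a2 they were Cpt1a (0.992), an enzyme of mitochondrial fatty acid import, Fbxl7 (0.986), an F-box protein, and Tgfbr3 (0.985), a TGF-beta co-receptor, none of which passed. Of the genes closest to the remaining enzymes, the retinoid receptor Rxrb for Aldh1a1 (0.991) and the binding protein Crabp2 for Cyp26b1 (0.971) were picked for their retinoid role. Each was the last of the 3 closest to its enzyme, and neither was called. The closest to Aldh1a1 was Brk1 (0.999).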

How the data were processed

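RNA of 6 samples of sorted cells was amplified from 10 ng and hybridized to a 1-colour array, per the labels' protocols. The authors deposited log2 values, 1 per probe set and array. Affy, RMA and limma are named in the submitters' processing notes without versions, and no source used here gives the settings. RMA equalizes distributions between arrays and compresses differences between dim probe sets. Genes were named from the platform annotation, and 34754 of 34958 probe sets with 1 symbol matched RefSeq (GRCm38.p6). The 64 array controls were left out.

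The comparison, null against heterozygote, used lmFit and eBayes of limma 3.58.1 (R 4.3.3; two-sided, no covariates, threshold 0.05). It was run over 45037 probe sets and over 18193 genes, with the brightest probe set standing for its gene. The fit was checked on simulated data. Arrays were paired by 14 hybridization control probe sets, with summed distances of 1.94 for the best of 15 matchings and 5.05 for the second. This pairing comes from the data, not the labels. The alternatives were 2 other priors, a filter at the 33rd percentile, median centring, array weights, the pair block, omission of each array, a threshold of 0.10 and the mean over probe sets. Named were all members, every gene of the 4 other retinoid lists past the threshold, and the 3 genes closest to Aldh1a2, Aldh1a3 and Dhrs3. Of the genes closest to the other members, the retinoid genes Rxrb and Crabp2 were named, with Brk1 as the closest to Aldh1a1. Members and lists were chosen with earlier results of these data known. The number of arrays limits the precision.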

Additional observations from a re-analysis of the deposited data

How the results depend on the processing

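No enzyme gene, enzyme probe set, nor Adh1, Cyp1b1, Crabp1, Rarg or Ret changed sign under any alternative run for it. The other priors, the pair block, the dim filter and the threshold of 0.10 leave the size of a change as it was. Those alternatives could therefore not change a sign. The count of enzyme genes called lower, 0, became 1 (Aldh1a3) with array weights, without dim probe sets, with the pair block, with an intensity-dependent prior, with the mean over probe sets and at a threshold of 0.10, and stayed 0 with each array left out. The count called higher, 0, became 1 (Dhrs3) with the pair block. The 2 probe sets called lower ranged from 0 to 2 with 1 array left out and became 3 with array weights. With 1 array left out, the other retinoid genes called higher, 4, ranged from 0 to 4 and those called lower, 1, from 0 to 1. The pair block gave 8 higher, and the other alternatives 3 to 5. Over all genes, 147 were called higher and 106 lower, ranging from 41 to 208 higher and from 36 to 110 lower with 1 array left out. Array weights gave 341 higher and 212 lower, the pair block 485 and 345, and the threshold of 0.10 gave 235 and 170. Fits without 1 array have fewer samples. The cause of the shifts, with 1 array left out or under the other alternatives, was not tested. Without dim probe sets Cyp26a1 was not tested, since its mean lies under the limit. The mean over probe sets gives no value for single probe sets. The labels give the samples no shared numbers, so the pair block rests on the hybridization controls alone. Low signal limits Cyp26a1 in all arrays but heterozygote 1, and Aldh1a3 probe set 1448789_at in nulls (mean 4.43). For Aldh1a3 probe sets 1417642_at and 1427395_a_at the null means, 5.03 and 5.37, lay above the limit of 4.81. Their values in null 3, 4.79 and 4.71, did not.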
